A study of Rattus norvegicus with 2 samples.

Results

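The genes described here encode subunits of the sodium pump and of the calcium pumps, measured in rat endothelium of 2 origins in culture, the aorta and the lining of the heart chambers (endocardium). Members were all probe sets outside the array's controls whose platform annotation gave exactly 1 gene symbol, equal to Atp1b1, Atp1b2, Atp1b3, Atp2a2, Atp2a3, Atp2b1 or Atp2b4. These 7 genes, 3 for the sodium pump and 4 for calcium pumps, are among 4736 genes named in this way. They hold 17 probe sets of the 8799 on the array, 7 for the sodium pump subunits and 10 for the calcium pumps. The 2 groups, aortic and endocardial, came from the same 2 rats, with the cells of the rats pooled within each origin, cultured for 2 passages and kept closely matched in culture conditions and confluence. Strain, age and any treatment are not given in the sources used here. Total RNA of each pool was hybridised to 1 Affymetrix rat U34A array, so with 1 array in each group the differences below have no replicate check and were not tested.

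The sodium pump (Na,K-ATPase) is a plasma membrane enzyme that uses ATP to move sodium out of the cell and potassium in, which sets the sodium gradient that other transporters and exchangers draw on. Its alpha subunit carries the catalytic cycle, and its beta subunit, a glycosylated protein encoded by Atp1b1, Atp1b2 or Atp1b3, is needed for the enzyme to fold and reach the membrane. Calcium pumps are single-chain relatives of the alpha subunit: the SERCA pumps, of which Atp2a2 and Atp2a3 encode SERCA2 and SERCA3, fill the endoplasmic reticulum, and the PMCA pumps, of which Atp2b1 and Atp2b4 encode PMCA1 and PMCA4, export calcium across the plasma membrane. In endothelium, cytosolic calcium is an input to nitric oxide and prostacyclin release and to barrier control.

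Each value is a scaled intensity, the brightness of a probe set on a linear scale after both arrays were brought to the same trimmed mean. Intensities of this kind can fall below 0. A floor was set at the median of all scaled values (635.04), values under it were set to it, and a probe set at or under it on both arrays was left out of ratios. A stricter mark is the highest value (1741.43) among 38 background controls, which are probe sets for the opposite strand or for bacterial, yeast or mouse RNA. Between the arrays these controls differed by -503.45 to 1167.6, endocardial minus aortic. Of 8740 probe sets outside the controls, 4808 were kept, and 3932 of these were above the floor on both arrays. Log2 ratios are endocardial over aortic, and probe sets that share a gene had an SD of 0.39 around their gene's mean (625 genes, 1432 probe sets). That SD describes probe sets on these arrays and holds no spread between cultures. Each array had its own fluidics module, so module and cell origin cannot be told apart.

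Atp1b1, the beta 1 subunit of the sodium pump, had the largest ratios of the members that could be given one, with the endocardial array brighter. Its probe set rc_AI112173_at measured 1784.1 on the aortic array and 9294.7 on the endocardial, a 5.21-fold higher endocardial value (log2 ratio 2.38). Both values were above the highest background control, the aortic one only just. A second Atp1b1 probe set, rc_AI230614_s_at, had 257.9 on the aortic array and 2657.6 on the endocardial. Its aortic value lay under the floor, so the endocardial value was at least 4.18-fold higher against the floor, and at least 1.53-fold higher against the highest background control. The third, X63375exon_at, was under the floor on both arrays, with -215.3 on the aortic array and 231.9 on the endocardial, and gives no ratio. The differences of the first and second, 7510.6 and 2399.7, were both beyond the range of the background controls, and that of the third, 447.2, lay within it. Among the 3932 probe sets that exceeded the floor on both arrays, 16 had a log2 ratio as high as that of rc_AI112173_at or higher, itself included. Probe sets with an array under the floor were not ranked, and some had higher bounds, such as rc_AA892775_at of the lysozyme gene Lyz2 (log2 ratio at least 5.73).

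**Figure D1:**
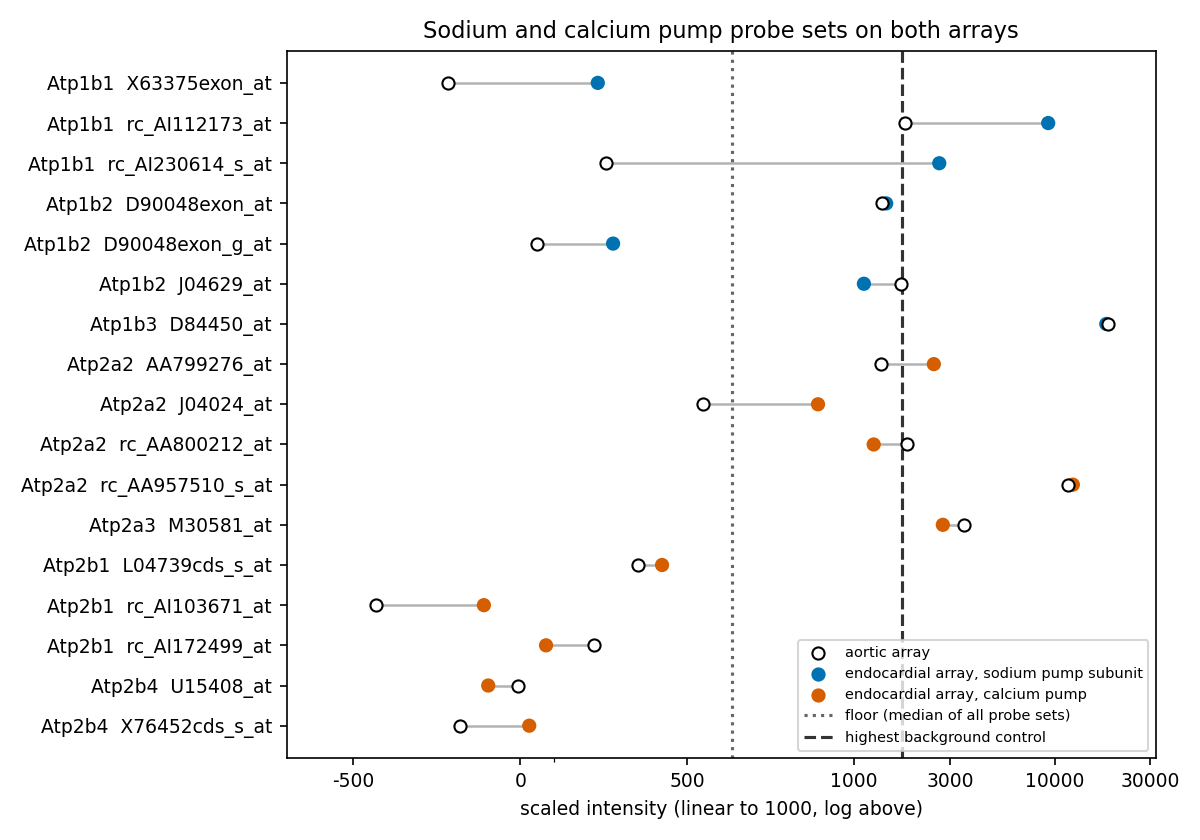
Scaled intensity of each of the 17 probe sets (horizontal axis, linear up to 1000 and logarithmic above) on the aortic array (open points) and the endocardial array (filled points, blue for sodium pump subunits and orange for calcium pumps), 1 array per group; the dotted line is the floor (635.04) and the dashed line the highest background control (1741.43). Atp1b1 rc_AI112173_at moves from 1784.1 to 9294.7, while the points of Atp1b3 and of Atp2a2 rc_AA957510_s_at nearly coincide, and all probe sets of Atp2b1 and Atp2b4 lie left of the floor.

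Atp1b3, the beta 3 subunit, was bright on both arrays and nearly equal between them. Its probe set, D84450_at, had 18470.3 on the aortic array and 18123.6 on the endocardial (log2 ratio -0.03, turning to a positive 0.03 under quantile normalization or loess and 0.01 when ratios were centred on their median). This difference was smaller than the SD among probe sets of a gene. Atp1b3 therefore had a measured ratio near 1 on the same arrays on which Atp1b1 was 5.21-fold higher in the endocardial sample. The difference between the Atp1b1 and Atp1b3 ratios was not tested.

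Atp1b2, the beta 2 subunit, best known as an adhesion molecule of glia, was under the highest background control with all of its probe sets on both arrays. D90048exon_at had 1370.6 on the aortic array and 1443.6 on the endocardial (log2 ratio 0.07). J04629_at had 1707.2 and 1117.5, in that order (log2 ratio -0.61). D90048exon_g_at was under the floor on both, with 50.8 and 277.7. The kept probe sets had ratios of opposite sign. The difference of J04629_at (-589.7) lay just outside the range of the background controls and that of D90048exon_at (73) within it, and with values of the size of background neither is given as a difference in Atp1b2 expression.

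In all, 5 of the 7 sodium pump probe sets were kept, and 2 of these, both of Atp1b1, were 2-fold or more higher on the endocardial array, while 0 were at least 2-fold lower. Among all 4808 kept probe sets, 6.61% were at least 2-fold higher and 4.83% at least 2-fold lower. With the highest background control as the floor, 3 sodium pump probe sets were kept and 1 of them, rc_AI112173_at, was at least 2-fold higher, beside 4.53% higher and 3.26% lower of 3070 kept probe sets. The median log2 ratio of the 5 kept probe sets was 0.07, with rc_AI230614_s_at at its bound, beside -0.03 over all kept probe sets. The median thus does not carry the Atp1b1 difference, which rests on 2 probe sets of 1 gene in 1 pair of arrays.

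**Figure D2:**
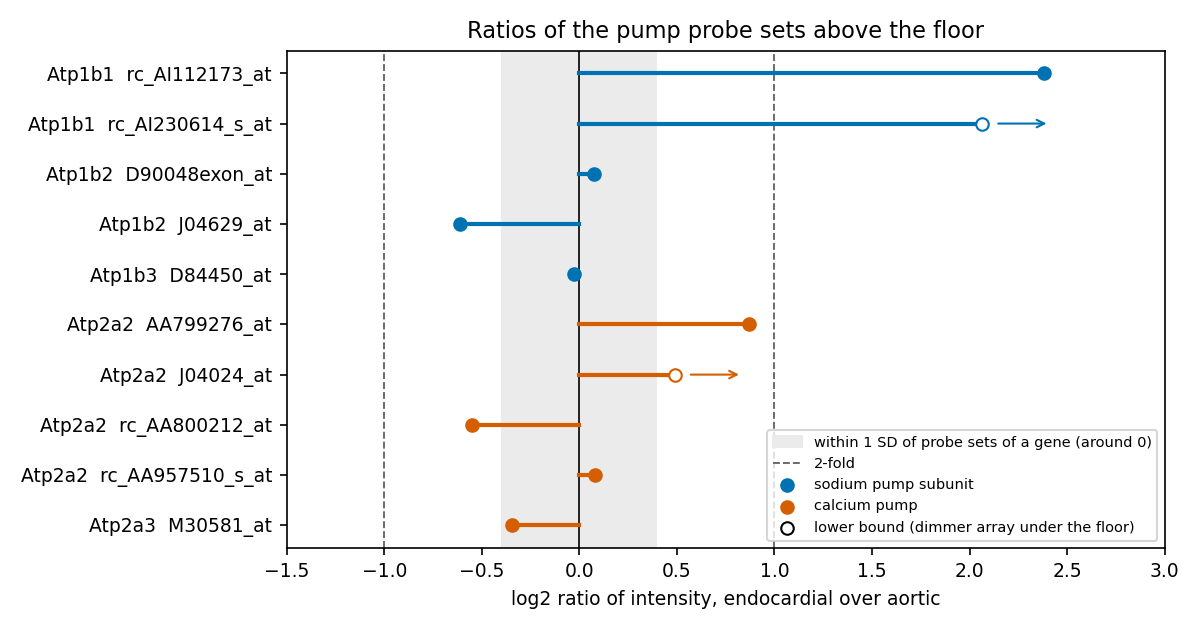
Log2 ratio of intensity, endocardial over aortic (horizontal axis), of the 10 pump probe sets kept above the floor; filled points are ratios, open points with arrows are lower bounds, the grey band is 1 SD (0.39) of ratios among probe sets of a gene around 0, and dashed lines mark 2-fold. Only the Atp1b1 probe sets among these 10, at 2.38 and at least 2.07, lie beyond 2-fold.

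Atp2a2, the SERCA2 gene, which serves the endoplasmic reticulum of most cell types and the sarcoplasmic reticulum of the heart, had 4 probe sets, and these did not share a direction. The one above the highest background control on both arrays, rc_AA957510_s_at, had 11654.8 on the aortic array and 12340.6 on the endocardial (log2 ratio 0.08). AA799276_at had 1366.8 on the aortic array and 2496.6 on the endocardial, 1.83-fold higher (log2 ratio 0.87), with its aortic value under that control. In the opposite direction, rc_AA800212_at had 1827.9 on the aortic array and 1250.5 on the endocardial (log2 ratio -0.55). Its endocardial value was under the highest background control, so against that control it was at least 1.05-fold lower (log2 ratio bounded at -0.07). J04024_at had 546.9 on the aortic array and 891.5 on the endocardial, at least 1.40-fold higher against the floor, with both values under that control. The difference of rc_AA800212_at (-577.4) lay just outside the range of the background controls, those of the other 3 lay within it, and none was shown to reach 2-fold. For the Atp2a2 probe set that was well above background, the arrays thus differed by less than the SD among probe sets of a gene.

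Atp2a3, the SERCA3 gene, known from platelets, leukocytes and some endothelia, had 1 probe set, M30581_at, with 3520.7 on the aortic array and 2768.5 on the endocardial. Both values were above the highest background control. The endocardial value was 1.27-fold lower (log2 ratio -0.35), within the SD among probe sets of a gene, while the difference in intensity (-752.2) lay outside the range of the background controls.

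The plasma membrane calcium pumps gave no ratio. Atp2b1, which encodes the widely expressed PMCA1, had 3 probe sets under the floor on both arrays: L04739cds_s_at with 353 on the aortic array and 424.4 on the endocardial, rc_AI172499_at with 220 and 76.9, and rc_AI103671_at with -431.9 and -109.3. Atp2b4, which encodes PMCA4, had 2 probe sets near 0: U15408_at with -6.9 on the aortic array and -96.3 on the endocardial, and X76452cds_s_at with -182.2 and 26.6. Differences of these 5 probe sets ranged from -143.1 to 322.6, inside the range of the background controls. Expression of Atp2b1 and Atp2b4 was not detectable with these probe sets, which does not show that the transcripts were absent.

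Of the 10 calcium pump probe sets, 5 were thus kept, 0 were at least 2-fold higher and 0 at least 2-fold lower on the endocardial array, beside the 6.61% higher and 4.83% lower of all kept probe sets, so 0 of 5 is near the share over all features. Their median log2 ratio was 0.08, with J04024_at at its bound, beside -0.03 over all kept probe sets. No test stands behind these counts, and with 1 array per group no difference, that of Atp1b1 included, can be separated from the spread between cultures.

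**Figure D3:**
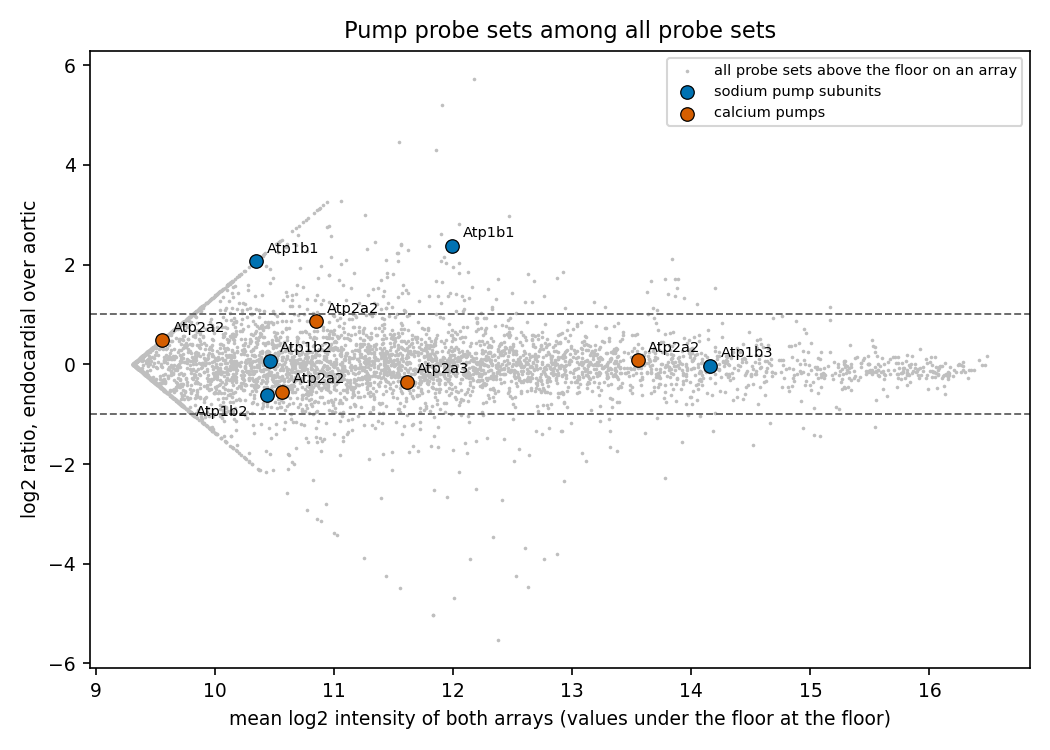
Log2 ratio, endocardial over aortic (vertical axis), against the mean log2 intensity of both arrays (horizontal axis) for the 4808 kept probe sets (grey), with the 5 kept sodium pump probe sets in blue and the 5 kept calcium pump probe sets in orange; dashed lines mark 2-fold, and the straight edges of the grey cloud are probe sets with 1 array at the floor. The Atp1b1 point at a log2 ratio of 2.38 stands away from the cloud's centre, the lower-bound Atp1b1 point lies on its edge, and the other 8 points lie within 2-fold.

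Other genes of sodium transport and calcium handling came from 6 lists of 60 genes in all, of which 46 had a probe set under their symbol alone. Of their 97 probe sets, 48 from 27 genes were kept, 4 were 2-fold or more higher on the endocardial array, 0 were at least 2-fold lower and 44 lay between, with a median log2 ratio of -0.09. These counts are near the shares over all kept probe sets (6.61% higher and 4.83% lower). The testis alpha subunit Atp1a4 was under the floor on both arrays, with -694.6 on the aortic array and -514.9 on the endocardial.

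Among the FXYD proteins, small membrane proteins that bind the sodium pump and tune its kinetics, Fxyd1 (phospholemman) had 2796 on the aortic array and 4497.9 on the endocardial with rc_AA799645_at (log2 ratio 0.69). Its other probe set, rc_AA799645_g_at, had 446.7 and 714, at least 1.12-fold higher against the floor. Fxyd4 had 2207.2 on the aortic array and 1592.2 on the endocardial (log2 ratio -0.47), and Fxyd2 was under the floor on both. The FXYD genes thus had ratios of both signs, none shown to reach 2-fold.

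Among pumps of the same family, Atp4a, the catalytic subunit of the gastric proton pump, had 621.5 on the aortic array and 2734 on the endocardial with J02649_at, at least 4.3-fold higher against the floor and at least 1.57-fold against the highest background control. The other Atp4a probe sets, S74801_s_at and X61933mRNA_s_at, stayed under the floor on each array, so this difference rests on 1 of its 3 probe sets. The muscle pump gene Atp2a1 and the PMCA2 gene Atp2b2 were under the floor on both arrays, as was Pln, which encodes the SERCA2 inhibitor phospholamban (123.3 on the aortic array and 23.9 on the endocardial). Atp2b3, the PMCA3 gene, had log2 ratios of -0.38 and -0.22 with values under the highest background control. Slc8a1, the sodium-calcium exchanger driven by the sodium gradient, had 6084.5 on the aortic array and 6776.4 on the endocardial with X68812_s_at (log2 ratio 0.16). Its other kept probe set, U04934_s_at, had the opposite sign, with 1182.9 and 1027.4, both under the highest background control (log2 ratio -0.20).

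In the calcium release and store lists, Rcn2, a calcium-binding protein of the endoplasmic reticulum, had 4090.8 on the aortic array and 14803.5 on the endocardial with U15734_at, 3.62-fold higher. S100a1, a calcium sensor of muscle, was at least 2.85-fold higher with U26356mRNA_s_at, whose endocardial value (1811.5) was near the highest background control, while its S68809_s_at had a log2 ratio of -0.14. Of the Itpr1 probe sets, J05510_at was at least 2.66-fold higher with an endocardial value under that control (1688.6). The other kept Itpr1 probe set, U38653_s_at, had 614.1 on the aortic array and 663.1 on the endocardial, and the rest were under the floor on both. Itpr3, an inositol trisphosphate receptor that releases the calcium that SERCA pumps take up, had 9585.1 on the aortic array and 5490.3 on the endocardial with L06096_g_at (log2 ratio -0.80) and 3047.9 and 2087.2 with L06096_at (log2 ratio -0.55). The calcium-storing chaperone Calr had log2 ratios from 0.22 to 0.38 over its 3 probe sets, and calmodulin, Calm2, which activates PMCA pumps, had -0.49.

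**Figure D4:**
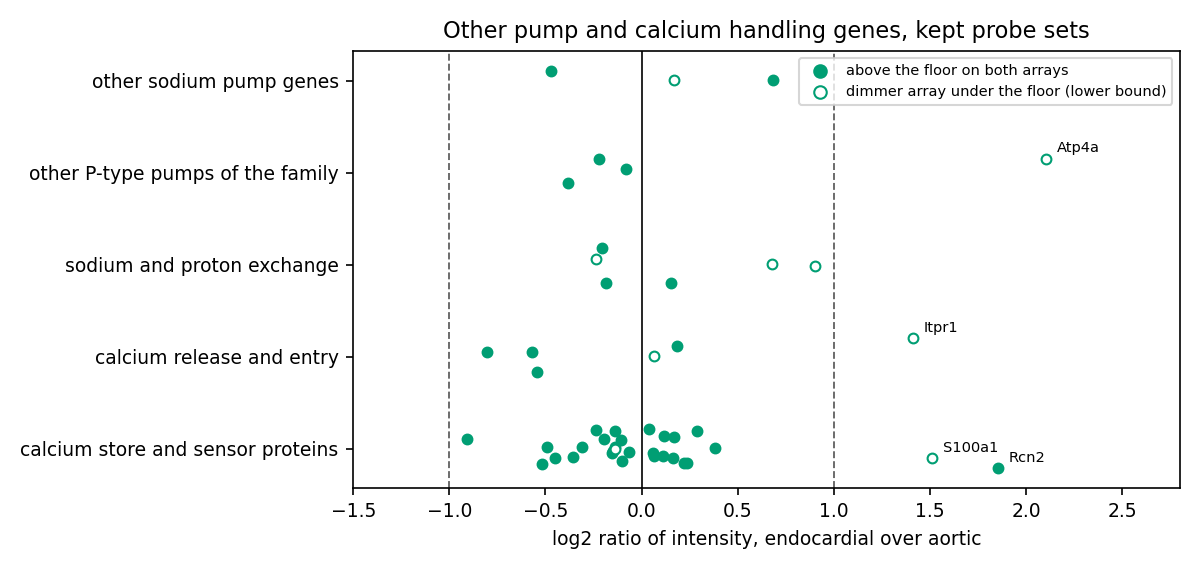
Log2 ratio of intensity, endocardial over aortic (horizontal axis), of the 48 kept probe sets of other pump and calcium handling genes in 5 of the 6 lists; points are spread vertically within a list for legibility, open points are lower bounds and dashed lines mark 2-fold. The 4 points beyond 2-fold are Atp4a, Itpr1, S100a1 and Rcn2, and of these Rcn2 alone was above the floor on both arrays.

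Markers of several cell types also differed between the arrays, in both directions. Of 8 kept macrophage and leukocyte probe sets, 5 were 2-fold or more brighter on the endocardial array and 0 were dimmer by as much. Among all kept probe sets these shares were 6.61% and 4.83%. With the highest background control as the floor, 6 of the list were kept and 1, of the lysozyme gene Lyz2, was 2-fold or more brighter, beside 4.53% of all kept. The summed intensity of the list's 11 probe sets (values under 0 counted as 0, here and below) was 4418.6 on the aortic array and 48466.1 on the endocardial, largely from Lyz2 (287.6 and 33600.6). No Ptprc probe set, for the defining leukocyte phosphatase, exceeded the highest background control, and Csf1r did not exceed the floor. Of 9 kept smooth muscle probe sets, 2, both of the myosin light chain Myl9, were at least 2-fold higher and 1, of Myh11, was at least 2-fold lower, with a summed intensity of 224365 on the aortic array and 320252 on the endocardial. Of 13 kept fibroblast probe sets 4, all of Dcn, were at least 2-fold lower, with summed intensities of 571669 and 467743. Of 5 kept cardiomyocyte probe sets 0 were 2-fold or more higher and 1, of Myh6, was 2-fold or more lower (summed intensities of 6469.7 and 5864.28). Of 2 kept platelet probe sets 1, of Pf4, was 2-fold or more higher and the other, of Itga2b, had a log2 ratio of 0.02 (2046.6 and 3270.61). With the highest background control as the floor, the calls of Myl9 and Dcn remained and those of Myh11, Myh6 and Pf4 did not. Of 2 kept glia and neuron probe sets neither passed 2-fold (5800.6 and 4604.7). The part of these cells in the Atp1b1 difference was not tested, and in such cultures more cells of a type and more RNA per cell cannot be told apart. Of 6 endothelial markers with a probe set, Nos3, Flt1 and Thbd had kept probe sets, none of them at least 2-fold apart. Vwf, Pecam1 and Kdr had none, and the list's summed intensities were 10854.1 and 10595.4. Only Thbd, with AF022742cds_at, exceeded the highest background control on both arrays (3918.4 aortic and 2846.6 endocardial). Flt1 lay under that control on both arrays, as did Nos3 except for 1 aortic value (1830.6 with U02534_at). The endothelial identity of the cultures is therefore taken from the labels.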

How the data were processed

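The deposited table held 1 intensity per probe set and array on a linear scale, made by the authors; the summary software and genome build are not given in the sources used here. The authors' deposited values were nearly equal in trimmed mean, and the endocardial array was multiplied by 0.999 to equalise the 2% trimmed mean over the 8740 probe sets outside the controls. Instrument files, per the file headers, listed 40 settings, and only the scan time and fluidics module (2 settings) were unlike. Gene symbols came from the platform annotation, and all 7 member symbols matched a RefSeq table of assembly GRCr8 by gene identifier. Promoter sequences and gene positions were not used here. Ratios, counts at a fixed 2-fold size and a loess (span 0.4, statsmodels 0.14.6) were computed in Python 3.11.15 with scipy 1.17.1. The scaling, floor and ratio steps were tested on simulated data. Changes were simulated only in probe sets above the 75th percentile, so changes in dim probe sets were not checked. With 1 array per group no test was run, and the number of arrays limits the precision. The named genes were all members, the other subunits and regulators of the same pumps with a probe set, and list genes at least 2-fold apart with a value above the highest background control. Itpr1, Itpr3, Slc8a1, Calr, Calm2 and the marker genes were named after their values were seen. Alternatives were 4 ways of scaling, 3 floors and plain probe sets. Members and lists were chosen with earlier results of these data known.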

Additional observations from a re-analysis of the deposited data

How the results depend on the processing

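Without rescaling, and with a loess, quantile normalization or ratios centred on their median, the sodium pump count stayed at 2 probe sets beyond 2-fold and the calcium pump count at 0. The sodium pump count was 1 with the floor at the 75th percentile, at the highest background control, and with plain probe sets (names with no letter before the ending), since rc_AI230614_s_at was then bounded at a log2 ratio of 0.05 or 0.61 or left out. The sodium pump median log2 ratio was 0.61 with the highest background control as the floor and 1.23 with no floor, where 6 probe sets entered. With no floor the sodium pump count was 3, with Atp1b2 D90048exon_g_at added, and the calcium pump count was 1, Atp2b1 rc_AI172499_at, and both of these had values under the floor used above on each array. Over the alternatives that kept it, Atp1b1 rc_AI112173_at had log2 ratios from 1.85 to 2.42. The 1.85 is a lower bound, since the aortic value (1784.1) lay under the floor at the 75th percentile (2574.62). Of 70 single probe set ratios under alternatives, 65 moved by less than the SD among probe sets of a gene and 5 by more. The 5 were all under a changed floor. Many of the 65 could not move, since plain probe sets, or a floor under both values, leave a ratio as it was. Leaving out the rescaling undid a factor of only 0.999. This tally is therefore not a measure of how stable the ratios are. Over all probe sets, 550 lay beyond 2-fold, 166 with the floor at the 75th percentile, 239 with it at the highest background control, 1345 with no floor and 336 with plain probe sets. No paired test was possible, since the arrays, from pools of the same 2 rats with 1 array in each group, form only 1 pair.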
